A study of Mus musculus with 4 samples.

Results

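Photoreceptor fate regulators are the transcription factors that turn a dividing retinal progenitor into a rod or a cone. The 8 genes described here were chosen by name for their known roles, with earlier results of these data known. They were taken by symbol. Otx2, Crx, Prdm1 and Rorb act in both photoreceptor types, Nrl and Nr2e3 direct the rod fate, and Thrb and Rxrg mark the cone fate. All 8 of 8 were among the 18702 genes of the tables, and all 8 had a mean of at least 1 FPKM, the minimum for testing. The study sequenced total RNA of eye tissue from C57BL/6 mouse embryos in 4 libraries, 2 labelled as wild type (Anp32b+/+) and 2 as knockout (Anp32b−/−), and asked how the loss of ANP32B, an acidic nuclear protein that binds histones, bears on eye development. The sources used here do not give the embryonic stage, the sex, the embryos per library or the deleted part of Anp32b. They also do not say that libraries of a genotype stem from different embryos, so each p-value reflects only how far these libraries spread, which may be technical.

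A photoreceptor precursor first switches on Otx2, and OTX2 in turn activates Crx, whose product drives genes of rods and cones alike. PRDM1 (also called BLIMP1) is known to hold precursors in the photoreceptor fate and away from the bipolar fate, and RORB acts upstream of the rod program. NRL, a basic leucine zipper protein, and its target NR2E3, an orphan nuclear receptor, promote rod genes and repress cone genes, and mice that lack Nrl form cone-like cells in place of rods. The thyroid hormone receptor encoded by Thrb and the retinoid X receptor encoded by Rxrg control which opsin a cone makes. In mouse, cones and the first rods are born before birth and most rods after it, so an embryonic eye holds young photoreceptors with few mature products.

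The members lie on 6 chromosomes of GRCm38 (GENCODE M21), and all are protein coding. Otx2 spans positions 48657677 to 48673819 of chromosome 14 (minus strand), Nrl 55518978 to 55524981 of chromosome 14 (minus) and Thrb 17660261 to 18038090 of chromosome 14 (plus). Crx spans 15865947 to 15879968 of chromosome 7 (minus), Nr2e3 59942771 to 59960659 of chromosome 9 (minus), Prdm1 44437177 to 44528501 of chromosome 10 (minus), Rorb 18930605 to 19111196 of chromosome 19 (minus) and Rxrg 167598384 to 167639623 of chromosome 1 (plus). The antisense gene Otx2os1 shares 154 exonic bases with Otx2. On the same strand Gm49154 shares 168 with Otx2 and Gm15507 shares 61 with Nr2e3, which counting by strand would not separate. Whether counting used strand is not stated, so reads of these short stretches could be shared.

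Sequence before the start sites is shown for Crx, the gene to which the other members are set in ratio, for Nr2e3, the member that fell the most, and for both annotated starts of the cone gene Rxrg. The stretches come from the RefSeq promoter table of GRCm38.p6, 5′ to 3′. Those of Crx and Nr2e3 end before the first base of the 250-base window that GENCODE M21 annotates as exon. The Nr2e3 stretch precedes a RefSeq start and lies inside the GENCODE span of Nr2e3, which begins further upstream. Those of Rxrg hold no such base and end just before the RefSeq start. Capitals mark TAATCC (the core of CRX and OTX2 sites, read as GGATTA on the other strand) and CANNTG (the E-box of basic helix-loop-helix factors such as NEUROD1). The Crx stretch is chr7:15879969-15880205 (minus strand), the Nr2e3 stretch chr9:59950118-59950329 (minus), and the Rxrg stretches chr1:167598112-167598361 and chr1:167618015-167618264 (plus).
Crx: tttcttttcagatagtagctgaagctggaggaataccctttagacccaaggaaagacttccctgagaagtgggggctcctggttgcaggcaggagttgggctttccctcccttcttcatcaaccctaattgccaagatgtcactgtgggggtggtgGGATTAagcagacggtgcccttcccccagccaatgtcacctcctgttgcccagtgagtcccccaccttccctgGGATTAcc
Nr2e3: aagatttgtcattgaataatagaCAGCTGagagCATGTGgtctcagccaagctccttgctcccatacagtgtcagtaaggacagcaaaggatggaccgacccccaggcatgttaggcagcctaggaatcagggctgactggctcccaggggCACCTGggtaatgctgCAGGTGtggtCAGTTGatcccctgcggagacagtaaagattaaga
Rxrg, first start: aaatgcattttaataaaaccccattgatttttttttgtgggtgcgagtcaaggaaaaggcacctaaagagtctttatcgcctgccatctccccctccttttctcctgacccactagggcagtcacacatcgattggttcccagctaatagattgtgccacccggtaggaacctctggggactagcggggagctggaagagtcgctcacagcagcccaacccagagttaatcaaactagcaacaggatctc
Rxrg, second start: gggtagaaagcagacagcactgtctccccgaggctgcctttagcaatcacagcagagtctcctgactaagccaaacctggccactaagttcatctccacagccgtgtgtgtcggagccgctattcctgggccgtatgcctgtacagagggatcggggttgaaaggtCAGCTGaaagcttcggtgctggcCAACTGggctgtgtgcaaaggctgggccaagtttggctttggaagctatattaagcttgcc

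The Crx stretch held 2 TAATCC matches and no E-box, and the Nr2e3 stretch held 5 E-boxes and no TAATCC. The first Rxrg start had neither, and the second had 2 E-boxes. Over 250 bases before each start, TAATCC occurred in 3 of the 14 windows of the members (Crx, Otx2 and Thrb), against 6.25% of the 32851 windows in the table. E-boxes occurred in 9 of the 14, against 66.2%. On either strand TGCTGA, the core of NRL sites, was in 2 (Otx2 and Rorb, 16.1% of all windows), and AGGTCA, the core of nuclear receptor sites, was in 2 (Rxrg, where it overlaps an E-box, and Thrb, 14.0%). Windows of Otx2 overlapped each other in part, and the window with the Otx2 TAATCC match was annotated as exon over all its 250 bases. A match describes these letters in these windows and is not evidence of binding.

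Values are FPKM, fragment counts scaled to transcript length and library size, which allows levels of different genes to be set side by side. Fold changes are differences of log2(FPKM + 1), knockout minus wild type, which understates changes at low levels, and calls are limma adjusted p-values under 0.05. Low values in the tables lay on steps that put the depth at 17940000 to 18100000 fragments per library. The members then rested on about 40 to 8499 fragments per library, fewest for Thrb, depending on which annotated transcript is counted. Of 13887 genes tested, 54.6% were called, 33.5% higher and 21.1% lower in the knockout, and the values of the groups did not overlap for 77.9%. Crystallins of the lens fell from a sum of 69500 and 69690 FPKM to 6097 and 6145, and a fall of this size can shift the values of all other genes. With the deposited TPM values, where every library has the same sum, 61.9% of genes were called (6926 higher and 1667 lower, against 4654 and 2932 with FPKM). With crystallin and erythroid genes left out of the scaling 56.6% were called (3533 higher and 4330 lower), and with median-of-ratios scaling 54.9% (3936 and 3685). The median log2 fold change of all genes was 0.04 with FPKM and 0.16 with TPM. Calls and intervals were taken against 0 and not against this median. Anp32b itself had 163.18 and 179.12 FPKM in the wild type and 94.53 and 92.67 in the knockout (log2 fold change −0.86, adjusted p = 1.11e-05), so its RNA was reduced and not absent. Pax6 had 160.94 and 158.43 against 107.76 and 110.97.

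Of the 8 members, 7 were called, against 54.6% of all genes tested. Called higher were 4 (Otx2, Crx, Prdm1 and Rxrg) and lower 3 (Rorb, Nrl and Nr2e3), against 33.5% and 21.1% of all genes. Thrb was not past the threshold. The values of the groups did not overlap for all 8 with FPKM, as for 77.9% of all genes tested. With TPM this held for 7 of 8, and the share over all genes was not computed. Their median log2 fold change was −0.03, against 0.04 over all genes. Both rod regulators fell, whereas neither cone regulator was called lower with FPKM. Under both rescalings of FPKM Thrb was called lower, and Otx2 and Rxrg were not called. In bulk tissue fewer cells of a type and less RNA per cell cannot be told apart.

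**Figure D1:**
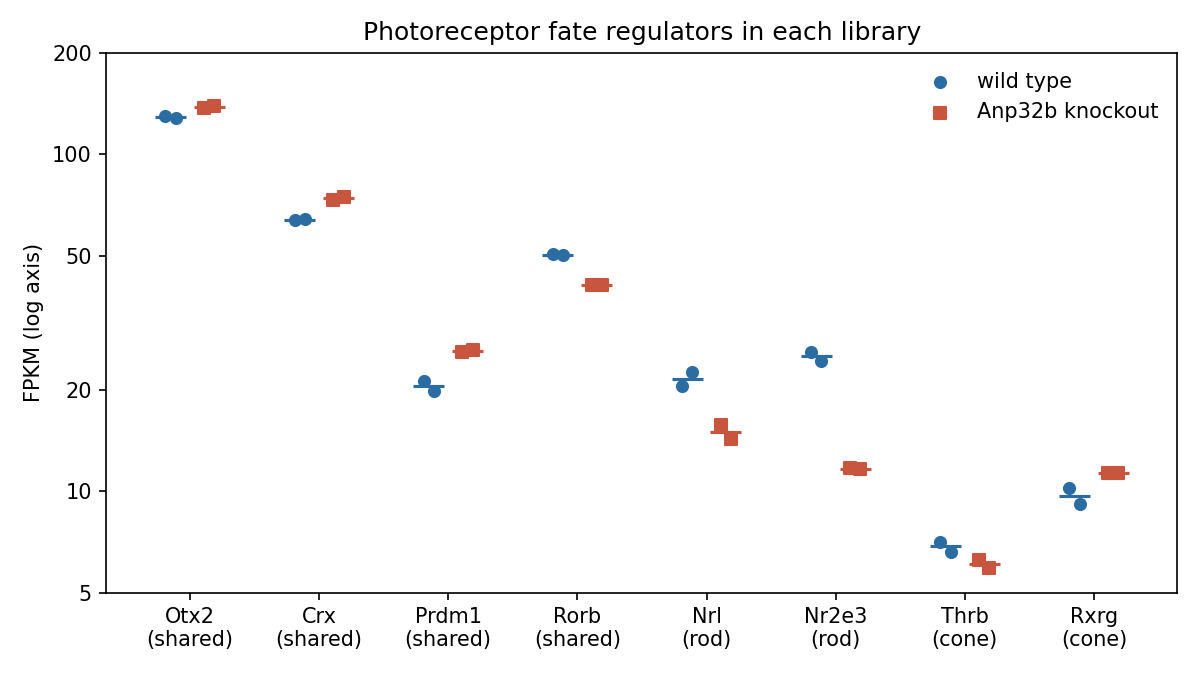
Level of each regulator in FPKM (vertical log axis) in the 2 wild-type libraries (blue circles) and the 2 Anp32b knockout libraries (red squares), with group means as bars. Nr2e3 and Nrl stood above 20 FPKM in both wild-type libraries and below 16 in both knockout libraries, while Otx2, Crx and Prdm1 were higher in both knockout libraries.

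Otx2, the homeobox gene at the head of the photoreceptor program and also active in the retinal pigment epithelium, was the most abundant member. The wild-type libraries had 130.32 and 128.55 FPKM and the knockout libraries 137.02 and 139.56. Both knockout values were above both wild-type values, at 106.8% of the mean (log2 fold change 0.09, SE 0.03, adjusted p = 0.0253). It was not called by limma without a variance trend (adjusted p = 0.102), with median-of-ratios scaling (adjusted p = 0.188), without crystallin and erythroid genes in the scaling (0.01, adjusted p = 0.715), and without wild-type replicate 2, knockout replicate 1 or knockout replicate 2. Its adjusted p ran from 0.000495 to 0.715 over the alternatives.

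Crx, the cone-rod homeobox gene, had 63.84 and 64.12 FPKM in the wild type and 73.02 and 74.98 in the knockout. Its level was thus higher in both knockout libraries, at 116% of the wild-type mean (log2 fold change 0.21, SE 0.03, adjusted p = 0.00112). Prdm1, the zinc finger gene that keeps precursors out of the bipolar fate, had the largest rise of the members. Wild-type libraries had 21.28 and 19.84 FPKM of it and knockout libraries 25.86 and 26.29, 127% of the wild-type mean (0.33, SE 0.04, adjusted p = 0.000751). Crx and Prdm1 were called higher under each of the alternatives run, with adjusted p-values up to 0.0224 and 0.0193. The size for Crx ran from 0.13 without crystallin and erythroid genes in the scaling to 0.33 with TPM.

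Rorb, an orphan nuclear receptor of progenitors, young photoreceptors and amacrine and horizontal cells, went the other way. It was at 50.53 and 50.26 FPKM in the wild type and at 41.08 and 41.05 in the knockout. Libraries of a genotype lay close together, and the knockout stood at 81.5% of the wild type (log2 fold change −0.29, SE 0.03, adjusted p = 0.000229). The fall was −0.17 with TPM and −0.37 without crystallin and erythroid genes in the scaling, and was called in every alternative run.

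Nrl, the leucine zipper gene that sets the rod fate, had 20.5 and 22.52 FPKM in the wild type and 15.76 and 14.29 in the knockout. Both knockout values were below both wild-type values, at 69.9% of the mean (log2 fold change −0.49, SE 0.06, adjusted p = 0.000612). Of all genes tested, 4.18% had a lower fold change. Nr2e3, the nuclear receptor that acts below NRL, had the largest change of the 8. It was at 25.98 and 24.29 FPKM in the wild type and at 11.7 and 11.61 in the knockout, a 2.16-fold lower level (−1.05, SE 0.05, adjusted p = 5.05e-06). The 95% interval of this log2 fold change was −1.15 to −0.94, and that of Nrl was −0.64 to −0.34. Only 0.763% of the tested genes had a lower fold change than Nr2e3. Both rod regulators were called lower in all alternatives run, with adjusted p-values up to 0.0144 for Nrl and 0.00171 for Nr2e3.

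Thrb, the thyroid hormone receptor gene whose TRβ2 form specifies medium-wave cones, was the least abundant member. It was at 7.09 and 6.62 FPKM in the wild type and at 6.23 and 5.92 in the knockout. Both knockout values were lower, but the fall of 0.15 on the log2 scale (SE 0.06, interval −0.29 to −0.01 before adjustment) was not past the threshold (adjusted p = 0.0724). With TPM the groups overlapped, at 15.31 and 14.13 against 14.62 and 13.78. The fall was called with median-of-ratios scaling (adjusted p = 0.0310) and without crystallin and erythroid genes in the scaling (adjusted p = 0.0210), within a range of 0.0210 to 0.572. A value per gene does not separate TRβ2 from the other receptor forms.

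Rxrg, the retinoid X receptor gene of cones, had 10.25 and 9.15 FPKM in the wild type and 11.33 and 11.3 in the knockout. Both knockout values were higher, at 117% of the wild-type mean, but the wild-type libraries were spread more widely than those of the knockout. The log2 fold change was 0.20 (SE 0.06, adjusted p = 0.0243). The call was lost without a filter on low values, under both rescalings of FPKM, and without wild-type replicate 2, knockout replicate 1 or knockout replicate 2, and its adjusted p ran from 0.00341 to 0.121. Rxrg is also expressed in skeletal muscle. All 12 muscle markers tested were called higher (median 1.06), and their summed level went from 1482 and 1577 FPKM to 3121 and 3177. Their part in the Rxrg value was not tested.

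**Figure D2:**
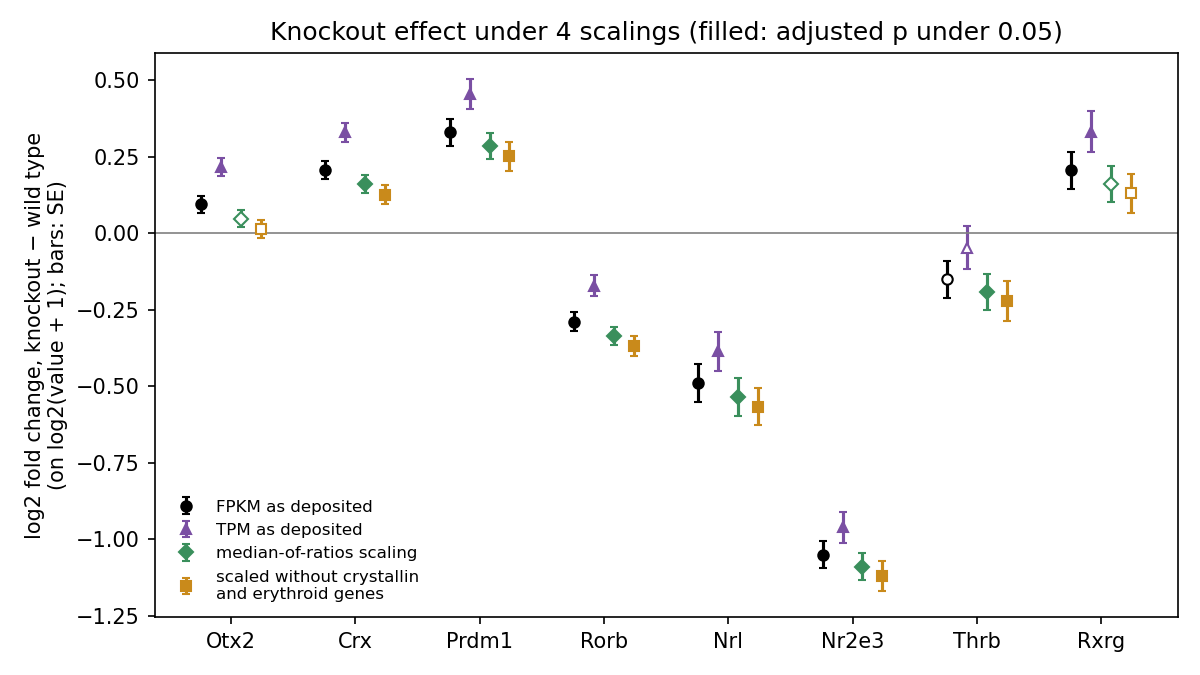
Log2 fold change (knockout minus wild type, on log2(value + 1), bars SE) of each regulator under 4 scalings of the libraries, with filled symbols for adjusted p under 0.05. Prdm1 and Crx stayed above 0 and Rorb, Nrl and Nr2e3 below it as filled symbols in all 4, while Otx2, Thrb and Rxrg changed between filled and open.

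Ratios of members within a library do not depend on how libraries are scaled. In these ratios the rod regulators fell relative to the cone regulators. The geometric mean of Nrl and Nr2e3 was 2.71 and 3.01 times that of Thrb and Rxrg in the wild-type libraries, and 1.62 and 1.57 times in the knockout libraries. The difference of the log2 ratios was −0.84 with a pooled SD of 0.078 between libraries of a group. It lay between −0.91 and −0.76 when each library was left out in turn. With 2 libraries against 2 an exact two-sided permutation test cannot go below p = 0.333, so no test is given.

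Each of the 4 rod-to-cone pairs moved the same way, to differing extents. The ratio of Nr2e3 to Rxrg went from 2.53 and 2.65 to 1.03 and 1.03, so that these genes were at nearly the same level in the knockout. Nr2e3 to Thrb went from 3.66 and 3.67 to 1.88 and 1.96. Nrl to Rxrg went from 2.0 and 2.46 to 1.39 and 1.26, and Nrl to Thrb from 2.89 and 3.40 to 2.53 and 2.41. None of these ratios overlapped between the genotypes, but the 4 pairs reuse the same 4 genes and are not separate support. The share of other gene pairs without overlap was not computed. Within the rod pair, Nr2e3 fell relative to Nrl, from 1.27 and 1.08 to 0.742 and 0.812. Within the cone pair, Rxrg gained on Thrb, from 1.45 and 1.38 to 1.82 and 1.91. On the log2 scale the shifts within the rod and cone pairs were −0.59 and 0.40. Those of the 4 rod-to-cone pairs ran from −1.33 (Nr2e3 to Rxrg) to −0.34 (Nrl to Thrb), so the members of a class did not move as 1.

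Set against Crx, which is made by rods and cones alike, most members stood lower in the knockout. Crx itself was at 116% of its wild-type mean there, which lowers every ratio to it. The ratio of Nr2e3 to Crx was 0.407 and 0.379 in the wild type and 0.160 and 0.155 in the knockout, 40.1% of the wild-type ratio. Nrl to Crx was 0.321 and 0.351 against 0.216 and 0.191 (60.4%), Rorb to Crx 0.792 and 0.784 against 0.563 and 0.547 (70.5%), and Thrb to Crx 0.111 and 0.103 against 0.0853 and 0.0790 (76.7%). Otx2 to Crx went from 2.04 and 2.0 to 1.88 and 1.86 (92.4%). Prdm1 to Crx was 0.333 and 0.309 against 0.354 and 0.351 (110%), the only ratio of the 7 that was higher in both knockout libraries. Rxrg to Crx overlapped between the groups, at 0.161 and 0.143 against 0.155 and 0.151.

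**Figure D3:**
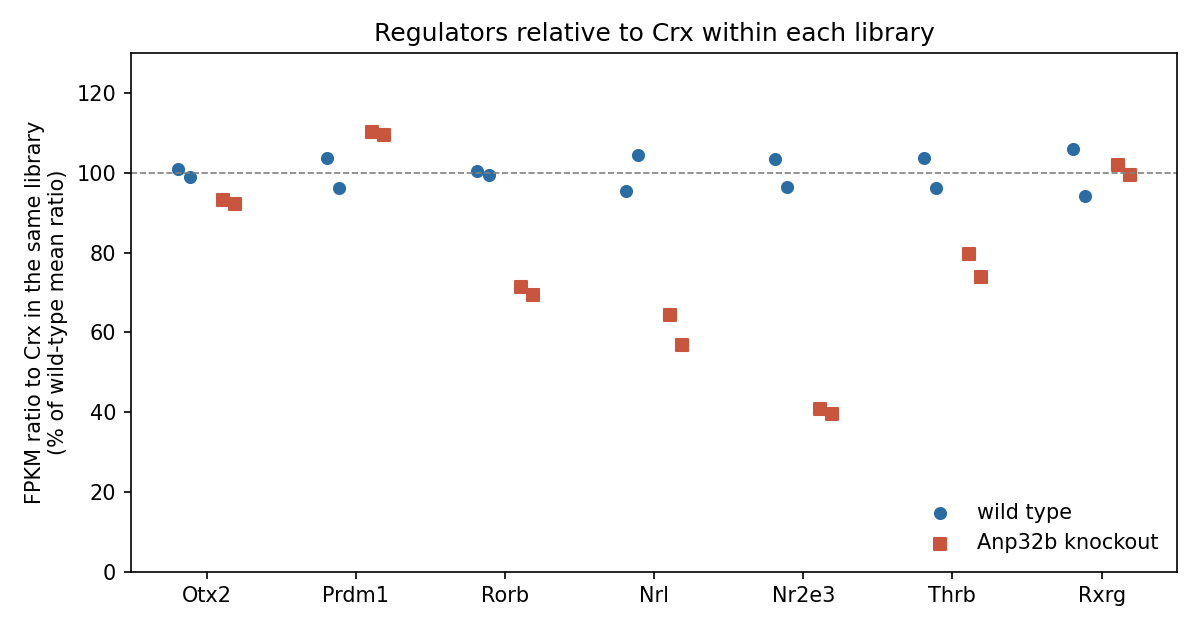
FPKM of 7 regulators divided by that of Crx in the same library, as a percentage of the wild-type mean ratio (dashed line at 100), for wild-type (circles) and knockout (squares) libraries. The knockout values of Nr2e3, Nrl, Rorb, Thrb and Otx2 stood below the wild-type libraries, those of Prdm1 above them, and those of Rxrg among them.

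The order of the levels per length changed with the rod regulators. In the wild type Otx2 was highest (129.4 ± 1.25 FPKM, SD, n = 2), followed by Crx (64.0 ± 0.198), Rorb (50.4 ± 0.191), Nr2e3 (25.1 ± 1.20), Nrl (21.5 ± 1.43), Prdm1 (20.6 ± 1.02), Rxrg (9.70 ± 0.778) and Thrb (6.86 ± 0.332). The wild-type values of Nrl and Prdm1 overlapped. In the knockout Prdm1 (26.1 ± 0.304) stood above Nrl (15.02 ± 1.04) and Nr2e3 (11.7 ± 0.0636), and Nr2e3, at 11.7 and 11.61 FPKM, was just above Rxrg at 11.33 and 11.3 (mean 11.3 ± 0.0212). Otx2, Crx and Rorb kept the first places and Thrb (6.08 ± 0.219) the last.

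Genes with the most similar pattern were sought among 10403 other genes averaging 5 FPKM or more, by the Euclidean distance between log2(FPKM + 1) values of the 4 libraries, each gene centred on its mean. Nearest to Nr2e3 were Zfp365 (8.24 and 7.78 against 3.41 and 3.41 FPKM) and Hpca (20.17 and 19.49 against 9.14 and 9.01), at distances of 0.022 and 0.033. Nearest to Nrl were Bcar3 and Mecr, to Thrb Tex261 and Map1a, and to Rxrg Kbtbd7 and Abi1, at distances of 0.010 to 0.035. With 4 libraries in 2 groups this likeness describes little more than a similar size of the difference.

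Genes of rod phototransduction were taken from a list of known genes. Of 13 rod genes, 6 passed the filter, of which 3 were called lower and 1 higher (median −0.33, against 0.04 over all genes). Sag, which encodes rod arrestin, was at 9.07 and 10.51 FPKM in the wild type and at 4.29 and 3.68 in the knockout (log2 fold change −1.11, adjusted p = 6.81e-05). Pde6b, a catalytic subunit of the rod phosphodiesterase, fell from 2.21 and 2.21 FPKM to 0.34 and 0.51 (−1.17, adjusted p = 0.000109). It passed the filter only through its wild-type values. Gngt1, the rod transducin gamma subunit, fell as well (−0.58, adjusted p = 0.00469). Pde6g, the inhibitory subunit, was called higher (0.24, adjusted p = 0.0317), but not under either rescaling of FPKM. The other 7 were below the filter, and in all 7 both knockout values were below both wild-type values, as in 16.3% of the 4810 genes below the filter.

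Of 10 cone genes, 9 were in the tables and 8 passed the filter, of which 4 were called higher and 1 lower (median 0.16). Opn1sw, the short-wave opsin, had 27.67 and 28.1 FPKM in the wild type and 49.54 and 47.22 in the knockout, 1.73-fold higher (log2 fold change 0.77, adjusted p = 7.09e-06). The transducin genes Gnb3 (0.19, adjusted p = 0.00251) and Gnat2 (0.25, adjusted p = 0.00986) also rose, as did the channel gene Cnga3 (0.26, adjusted p = 0.0243), which was not called without crystallin and erythroid genes in the scaling (adjusted p = 0.0575). Pde6h, the inhibitory subunit of the cone phosphodiesterase, fell from 8.85 and 8.24 to 3.91 and 2.98 FPKM (−1.11, adjusted p = 0.000136). Arr3, cone arrestin, was below the filter at 0.27 and 0.40 against 0 and 0.11. Among 17 genes of both photoreceptor types, 13 passed the filter, 6 were lower and 0 were higher (median −0.14). They included Rbp3, the retinoid-binding protein between photoreceptors and pigment epithelium (49.61 and 47.71 against 31.8 and 33.87 FPKM, −0.55), the outer segment genes Rom1 (−0.59) and Prph2 (−0.38), the calcium sensor gene Rcvrn (−0.67) and the axoneme gene Rp1 (−0.36). Unc119 (−0.16) was called with FPKM and not with TPM.

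Among 14 factors that modify the rod or cone program, the polycomb-associated genes Samd7 and Samd11, known from photoreceptors, showed the largest falls. Samd7 was at 5.47 and 5.65 FPKM in the wild type and at 0.68 and 0.82 in the knockout, 7.41-fold lower (log2 fold change −1.91, adjusted p = 4.9e-06). It passed the filter only through its wild-type values. Samd11 went from 24.92 and 24.93 to 8.90 and 8.68 FPKM (−1.41, adjusted p = 1.08e-06). Both falls exceeded that of Nr2e3 on the same scale. Tbx2, a T-box gene of short-wave cones and of the dorsal retina, fell from 51.89 and 51.8 to 31.04 and 31.53 FPKM (−0.71), and Mef2c, which is also expressed in muscle and vessels, rose from 9.05 and 8.53 to 18.77 and 19.63 (1.05). In all, 5 of the 14 were lower and 6 higher. The smaller calls were Rora (−0.24), an orphan receptor gene related to Rorb, and Pou2f1 (−0.19) on the lower side, and Sall3 (0.33), Mef2d (0.31), Nr2f1 (0.28), Nr2f2 (0.17) and Pias3 (0.12) on the higher side. Rora and Pou2f1 were not called with TPM (7 higher and 3 lower), and Nr2f2 and Pias3 were not called under either rescaling of FPKM (4 higher and 5 lower).

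Of 14 precursor factors 13 passed the filter, 7 were lower and 3 higher, with a median of −0.12. The higher ones were the proneural genes Neurog2 (0.19) and Atoh7 (0.10) and the Notch effector gene Rbpj (0.10). Of these, Neurog2 alone was also called with median-of-ratios scaling, and none without crystallin and erythroid genes in the scaling. Foxn4, a forkhead gene of the progenitor pool, went from 37.63 and 35.76 to 27.11 and 28.12 FPKM (−0.40, adjusted p = 0.000199). Neurod4 (−0.20) and Casz1 (−0.22) were called with FPKM, but with TPM only 2 of the 13 were lower (3 higher), and without crystallin and erythroid genes in the scaling 8 were lower and 0 higher. Of 9 partners and hormone-handling genes of the receptors, 8 passed the filter and 4 were higher, 3 of them under both rescalings too. They included Rxra, a retinoid X receptor gene, at 17.09 and 17.61 FPKM against 23.42 and 23.65 (0.42, adjusted p = 0.000121). None of the 8 was called lower with FPKM, and 1, the corepressor gene Ncor1, was without crystallin and erythroid genes in the scaling (adjusted p = 0.0334).

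**Figure D4:**
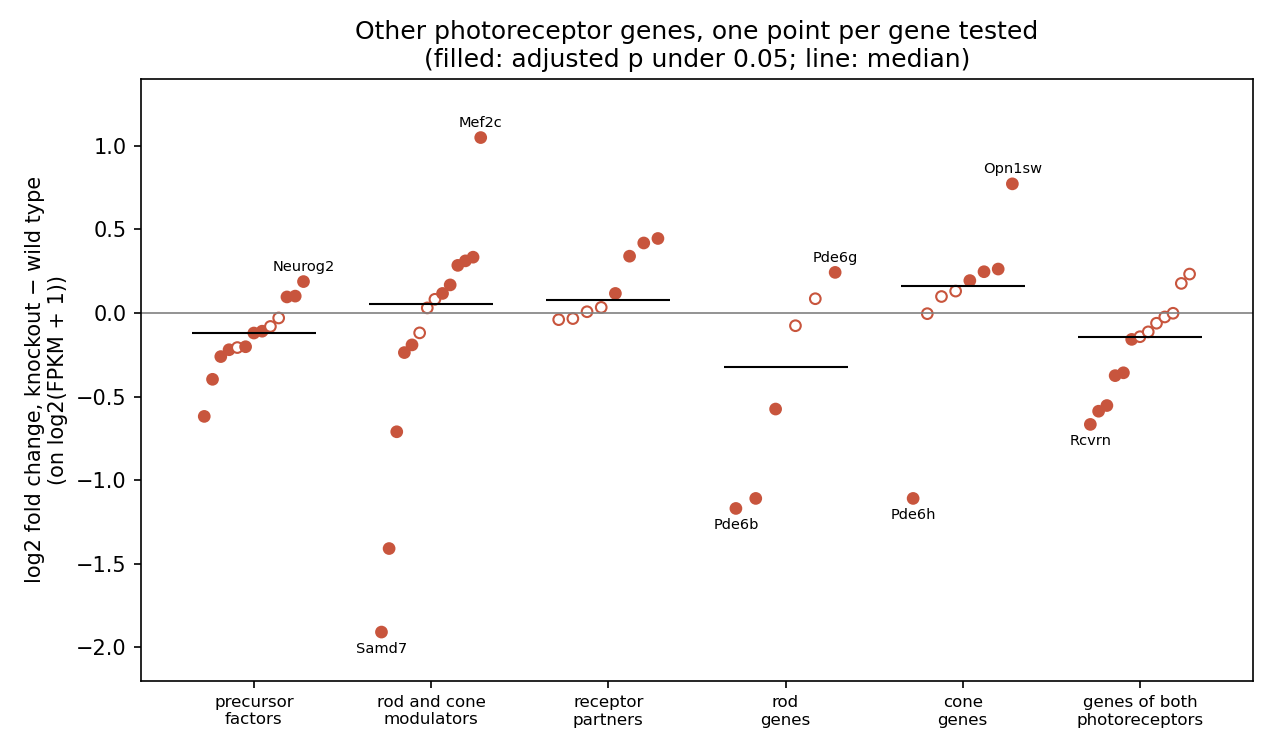
Log2 fold change (knockout minus wild type, on log2(FPKM + 1)) of every tested gene in 6 lists, filled where the adjusted p was under 0.05, with each list's median as a line and some of the lowest and highest genes named. Samd7 and Samd11 lie lowest among the modulators, the rod genes hold 3 filled falls, and the cone genes hold 4 filled rises and the fall of Pde6h.

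Markers of other cell types moved in the same libraries. Of 10 progenitor markers 8 were lower (median −0.51), including Ccnd1 (−0.91), and 1 was higher, Sfrp2, at 35.05 and 33.24 FPKM against 76.38 and 75.83 (1.13), with a summed level of 1415 and 1425 FPKM in the wild type and 923.4 and 932.4 in the knockout. Among 9 amacrine and horizontal cell markers, which bear on Rorb, 6 were lower, including Calb2 (−1.33) and Prox1 (−1.01), and 2 were higher, Gad2 (0.36) and Slc6a9 (0.14, not called under either rescaling of FPKM). The sums were 189.8 and 190.9 against 132.5 and 129.5 FPKM. For Otx2, the pigment epithelium list had 5 of 8 tested markers lower and 0 higher, including Pmel (−0.39) and Dct (−0.45), with sums of 425.5 and 422.5 against 329.8 and 326.8 FPKM and Rpe65 below 0.1 FPKM in all 4 libraries. Bipolar markers, of the fate that PRDM1 opposes, had 4 of 6 lower, including Trpm1 (−0.52, also a gene of pigment cells) and Cabp5 (−0.80), and 2 higher, Lhx4 (0.47) and Pcp2 (0.67), with sums of 62.83 and 65.4 against 48.42 and 49.34 FPKM. The defining bipolar genes Vsx1, Grm6 and Bhlhe23 were below 0.1 FPKM throughout. The part of these cell types in the values of the regulators was not tested.

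Most markers of surface epithelium, leukocytes and forebrain rose, whereas crystallins of the lens fell. PRDM1 is also made in epidermis and in leukocytes. Of 9 surface epithelium markers 8 were higher, including Perp (0.90) and Krt15 (1.02), with sums of 562.1 and 586.7 against 1155 and 1150 FPKM, and all 8 leukocyte markers that passed the filter were higher, including Tyrobp (1.22) and Lyz2 (1.18), with sums of 69.35 and 62.27 against 113.9 and 122.0. Their part in the Prdm1 rise was not tested. Forebrain markers bear on Rorb and Thrb, since both are expressed in brain. They were at low levels, with 4 of 4 tested higher and sums of 5.35 and 6.06 against 15.1 and 15.97 FPKM. Emx1 was below 0.1 FPKM in all libraries. Dlx5 (1.54), at 0.09 and 0.2 FPKM against 2.29 and 2.35, passed the filter only through its knockout values. The part of forebrain cells was not tested.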

How the data were processed

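Each library's deposited table lists FPKM values and TPM values by gene, per the file headers. Tools named in the submitters' processing notes are HISAT2, TopHat, Cufflinks and DESeq, with the builds GRCm38 and GRCh38. The role of each tool, the annotation and the use of strand are not stated. The tables hold no counts. The depth was the one that brought low FPKM values closest to whole fragments. Even so, only 53.7% to 63.3% of 308 to 332 such values per library lay within 0.15 of a whole fragment, so counts were not recovered. By chance 30.0% would do so at a depth not fitted to these values. Libraries of a group differed by more than counting noise (chi-square per gene 1.87 and 1.82) and were kept as 2 replicates each.

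Values were taken as log2(FPKM + 1), and the 13887 genes averaging 1 FPKM or more entered a limma 3.58.1 fit (R 4.3.3) that had a trended prior variance and genotype as its only term, tested two-sided with Benjamini-Hochberg adjustment over all genes, and read at an adjusted p under 0.05. Degrees of freedom were 2 (residual) and 4.89 (prior), and the procedure was tested on simulated data. There 200 of 13887 genes were changed, far fewer than were called here. It recovered 45.0% of them at a log2 change of 0.3, 95.5% at 0.5 and 99.0% at 1.0. Ratios, sums and lists were computed in Python 3.11.15. No set test was run. The filter used the mean of all 4 libraries, so a gene could pass it through 1 group alone. Lists were precursor factors, rod and cone modulators, receptor partners, rod genes, cone genes, genes of both photoreceptors, and markers of bipolar, pigment epithelium, amacrine and horizontal, progenitor, muscle, surface epithelium, leukocyte and forebrain cells. Members and lists were chosen with earlier results of these data known. Named were the members, up to 4 called genes of lowest p per photoreceptor list, up to 2 per marker list and the 2 nearest genes of each rod and cone regulator. Arr3 and further list genes completing small counts (Cnga3, Rora, Pou2f1, Sall3, Mef2d, Nr2f1, Nr2f2, Pias3, Neurog2, Atoh7, Rbpj, Ncor1, Rcvrn, Rp1, Gad2, Slc6a9, Lhx4, Pcp2) were named after their values were seen. Opn1mw was not analysed here, and some genes that the rule names are not reported here. Alternatives were the pseudocount, filters, a replicate block, TPM, 2 rescalings, no trend and the omission of each library.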

Additional observations from a re-analysis of the deposited data

How the results depend on the processing

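Crx, Prdm1, Rorb, Nrl and Nr2e3 kept their direction and stayed past the threshold under the 12 alternatives run for them. The rod-to-cone difference ran from −0.91 to −0.76 under its 7. Its direction could not change with TPM, since ratios within a library do not depend on scaling. Nor could it change with a library left out, since the ratios of the groups did not overlap. The other members turned on scaling or on single libraries. Otx2 was not called with limma without trend (0.0947), with median-of-ratios scaling (0.0476) or without crystallin and erythroid genes in the scaling (0.0138), and its log2 fold change ran from 0.0816 to 0.108 with each library left out. Rxrg was not called with no filter (0.20), with median-of-ratios scaling (0.16) or without crystallin and erythroid genes (0.13), and ran from 0.13 to 0.28 with each library left out. Thrb was called lower with median-of-ratios scaling (−0.19) and without crystallin and erythroid genes (−0.22). The number of members called higher was 2 under each of these 2 rescalings and 2 to 4 with each library left out, where the lone library of a genotype is assumed to vary like the others. Leaving out a library means fewer samples, and the cause of the other changes was not tested. With TPM 1667 genes were lower. Without crystallin and erythroid genes in the scaling, the medians of the rod and cone modulators (−0.0052) and of the receptor partners (−0.0033) changed sign. Among the counts and medians of the lists and the median of all genes, 445 stayed within their limits under an alternative, 69 moved and these 2 changed sign.

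With the replicate number as a block 7828 genes were called and the same number of members (7, 4 higher and 3 lower) passed. Same-numbered libraries of the groups share only a number (correlation of their deviations 0.044 over 13887 genes), so the replicate block was kept as an alternative. Depth limits Thrb the most of the members, at 40 to 48 fragments on the lower estimate, followed by Nr2e3 at 79 to 179.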
